A study of Mus musculus with 4 samples.

Results

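The replication-dependent histone genes were followed through erythroid-like differentiation of mouse erythroleukemia cells. Members were the rows of the deposited expression table whose symbol begins with Hist1h, Hist2h, Hist3h or Hist4h. Of 65 rows with such a symbol, 8 that carried several symbols and 1 pseudogene symbol were left out. This left 56 genes of the 47935 loci in the table: 2 of linker histone H1, 17 of H2A, 14 of H2B, 10 of H3 and 13 of H4. By symbol, 46 belonged to Hist1 on chromosome 13 and 8 to Hist2 on chromosome 3. Hist3 on chromosome 11 and Hist4 on chromosome 6 had 1 each. The Hist1 count includes Hist1h2al, annotated as a processed pseudogene at chr13:51202727-51203065, far from the other Hist1 genes.

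MEL cells are a transformed mouse line held at an early erythroid stage, in which dimethyl sulfoxide (DMSO) starts globin expression and other steps of red cell maturation. RNA depleted of ribosomal RNA was sequenced from 2 uninduced samples and from 2 samples induced with 1.5% DMSO. All 4 came from this 1 line, and how long DMSO was present is not stated in the labels. The table gives FPKM, that is fragments per kilobase of transcript after scaling by library size, so that levels can be compared between genes per length. Whether the replicates came from separate cultures is not in the labels, so a p-value measures only the spread between these samples.

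The 10 erythroid markers checked against the label were above 0 in every sample, and 7 of them rose on induction, with none falling. Markers of lymphoid, fibroblast, myeloid and male germ cells reached at most 0.56 FPKM in any sample. Between 12151 and 12645 loci per sample reached 1 FPKM. Read depth was not given. The lowest values above 0 in short single-exon loci clustered at 0.16 to 0.23 FPKM, which sets the step of about 1 fragment in a gene of histone length.

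Replication-dependent histone genes supply the histones that package newly copied DNA, and they are switched on together in S phase. Their transcription is organised by Npat in the histone locus body. Their mRNAs are the known exception to polyadenylation: the 3′ end is a short stem-loop, bound by the stem-loop binding protein (Slbp) and cut with the help of the U7 particle. The same stem-loop steers rapid decay of the mRNA when replication stops. Because ribosomal RNA depletion does not select for poly(A) tails, such mRNAs remain in the library.

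The stem-loop separated H4 from the other classes by its letters. The motif searched was the 5′ arm GGNNCT, the loop TNTN and the 3′ arm AGNNCC in a row, with all 6 base pairs of the stem formed. It was read on the sense strand of annotated 3′ UTRs (GENCODE M21, GRCm38). The motif was found in 37 of the 56 genes, against 0.239% of the 21762 protein-coding genes searched (52 genes, of which 45 were Hist1 to Hist4 genes). Of the 19 without it, 15 had at most 20 bases of annotated 3′ UTR, little more than the motif itself, so those windows say nothing of it. The 8 examples below show the variants in each class, with the 16-base stem-loop in capitals and 5 bases on each side.
Hist1h1d (H1, chr13:23555782-23555807, plus strand): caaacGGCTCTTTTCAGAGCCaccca
Hist1h2ae (H2A, chr13:23570663-23570688, minus strand): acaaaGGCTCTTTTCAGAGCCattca
Hist1h2bg (H2B, chr13:23571838-23571863, plus strand): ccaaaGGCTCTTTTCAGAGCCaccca
Hist1h3d (H3, chr13:23576239-23576264, plus strand): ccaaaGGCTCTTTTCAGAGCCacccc
Hist1h3c (H3, chr13:23745042-23745067, minus strand): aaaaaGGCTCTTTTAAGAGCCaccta
Hist1h4d (H4, chr13:23581945-23581970, plus strand): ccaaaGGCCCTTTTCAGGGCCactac
Hist1h4c (H4, chr13:23698084-23698109, minus strand): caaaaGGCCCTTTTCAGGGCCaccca
Hist1h4b (H4, chr13:23757361-23757386, plus strand): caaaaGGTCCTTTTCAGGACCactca
The commonest form, shown for Hist1h2ae, was shared by 18 genes: 1 of H1, 7 of H2A, 6 of H2B and 4 of H3. All 25 stem-loops outside H4 began with GGCTC. All 12 found in H4 began with GGCCC or GGTCC, and 7 of them had the form shown for Hist1h4d.

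The promoters held class-specific letters as well. RefSeq promoters (250 bases before to 50 after the start, GRCm38.p6) matched 50 of the 56 genes. CCAAT, read on either strand, was present in all 38 matched promoters outside H4 (2 of H1, 15 of H2A, 13 of H2B and 8 of H3) and in 3 of 12 of H4, against 37.9% of all 27025 promoters. TATAAA was present in 28 of 50 (14.2% of all promoters). The octamer ATTTGCAT was present in 10 of 50, all of them H2A or H2B genes (1.75% of all promoters). No motif contains another. The windows of H2A and H2B neighbours on opposite strands can overlap, as for Hist1h2ae and Hist1h2bg. The same bases then count for both genes. The 150 bases before the start are printed for an H2A gene that fell on induction (Hist1h2ac), for an H2B gene that shares its promoter with an H2A neighbour (Hist1h2bg), and for 2 abundant H4 genes. Capitals mark the 3 motifs on either strand.
Hist1h2ac (H2A, chr13:23683960-23684109, minus strand): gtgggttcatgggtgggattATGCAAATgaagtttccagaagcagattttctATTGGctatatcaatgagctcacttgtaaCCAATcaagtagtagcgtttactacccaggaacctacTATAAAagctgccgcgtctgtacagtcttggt
Hist1h2bg (H2B, chr13:23571250-23571399, plus strand): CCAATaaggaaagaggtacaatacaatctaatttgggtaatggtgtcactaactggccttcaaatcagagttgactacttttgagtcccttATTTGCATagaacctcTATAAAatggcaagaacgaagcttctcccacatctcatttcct
Hist1h4d (H4, chr13:23581418-23581567, plus strand): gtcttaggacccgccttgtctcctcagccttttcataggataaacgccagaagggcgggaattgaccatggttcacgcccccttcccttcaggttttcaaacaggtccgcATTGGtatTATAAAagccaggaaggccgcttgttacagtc
Hist1h4f (H4, chr13:23551669-23551818, minus strand): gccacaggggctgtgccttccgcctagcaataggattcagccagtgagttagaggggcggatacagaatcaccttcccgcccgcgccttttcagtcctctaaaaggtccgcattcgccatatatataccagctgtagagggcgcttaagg
The Hist1h2ac and Hist1h2bg stretches carry all 3 motifs, Hist1h4d carries CCAAT (as ATTGG) and TATAAA, and none of the 3 falls within the Hist1h4f stretch. A match of letters describes the sequence and says nothing of what binds there.

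Histone mRNAs were among the most abundant RNAs of these cells. In every sample 41 of the 56 genes reached 100 FPKM and 12 reached 1000 FPKM. Summed over the 56 genes, the level was 59587 and 94625 FPKM in uninduced samples 1 and 2, and 58957 and 42581 FPKM in induced samples 1 and 2. The sum was lower in both induced samples, although induced 1 lay just under uninduced 1, and the mean of the induced samples was 0.658 times that of the uninduced ones. This separation depended on the scaling: with globins and the 10 most abundant loci left out of it, the sums were 60837 and 86871 FPKM before and 63055 and 42740 FPKM after, so the groups overlapped (exact permutation p = 0.67). Histone genes made up 5.64% and 7.14% of the summed FPKM of all loci before induction and 4.73% and 3.87% after. An exact two-sided permutation test of the sum gave p = 0.33, the smallest that 2 against 2 samples can give. In bulk RNA, fewer cells in S phase and less histone mRNA per cell cannot be told apart.

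By gene, 10 histone genes fell on induction and none rose. The test was limma on log2(FPKM + 1), adjusted by Benjamini-Hochberg over the 12890 loci that reached 1 FPKM in 2 or more samples. Of the 56 genes 51 passed this filter, and 41 of these were not past the threshold of 0.05. Over all loci tested 14.7% were called lower and 11.5% higher. At an unadjusted limma p under 0.05 the histone counts were 21 lower and 0 higher, against 22.5% and 20.7% of all loci tested. The 10 are 5 of the 14 tested H2A genes, 2 of 12 of H2B, 2 of 10 of H3, 1 of 2 of H1 and 0 of 13 of H4, and each lies in the Hist1 cluster. The log2 change was below 0 in 46 of 51 tested genes, with a median of -0.87 beside 0.03 over all loci tested. Both induced samples lay below both uninduced samples in 36 of the 51 genes (34.7% of all loci tested did so) and above them in 2 (36.1%). The number of calls depended on the samples and on the filter. Over the same 12890 loci, none of the 51 was called without uninduced 1, uninduced 2 or induced 2, and 2 were without induced 1, with the median change between -0.53 and -1.11. With the filter applied anew to the 3 samples left, 15 genes were called lower without uninduced 1, 8 of them among the 10. By the same route 2 were called without uninduced 2, 5 without induced 1 and 0 without induced 2.

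**Figure D1:**
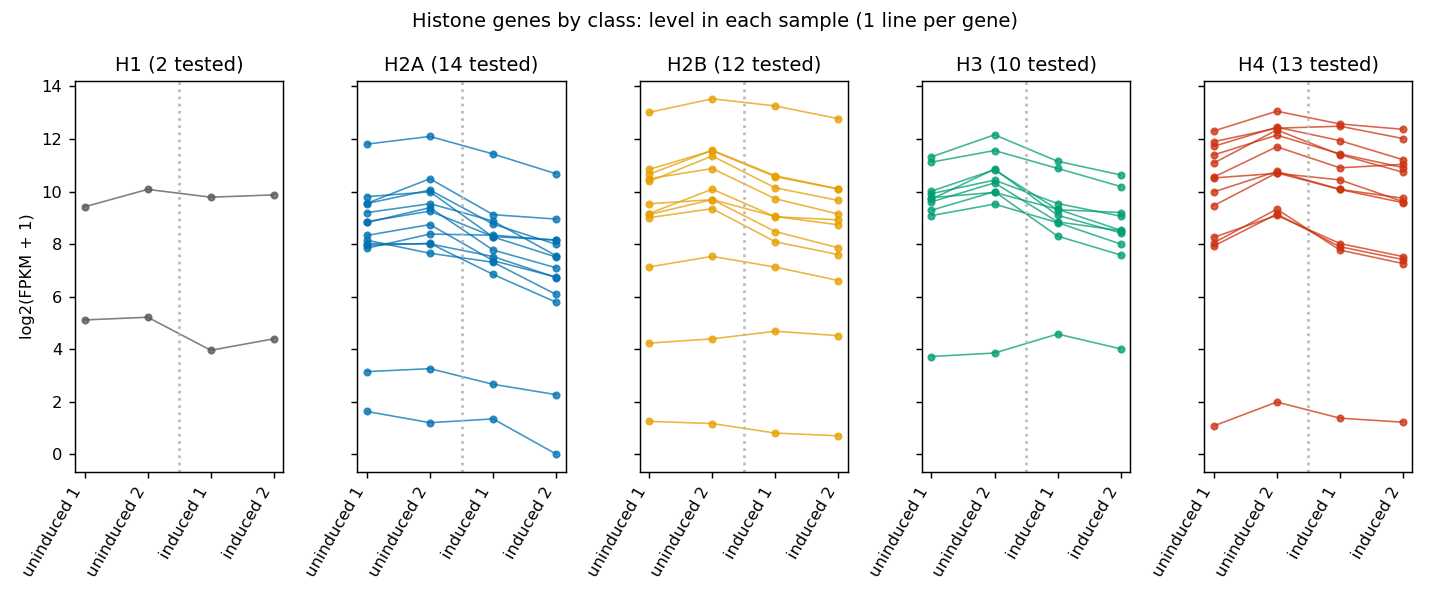
Level of each tested histone gene in the 4 samples, as log2(FPKM + 1) on the vertical axis, with 1 panel per class and 1 line per gene. Most lines peak in uninduced 2 and end lowest in induced 2.

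**Figure D2:**
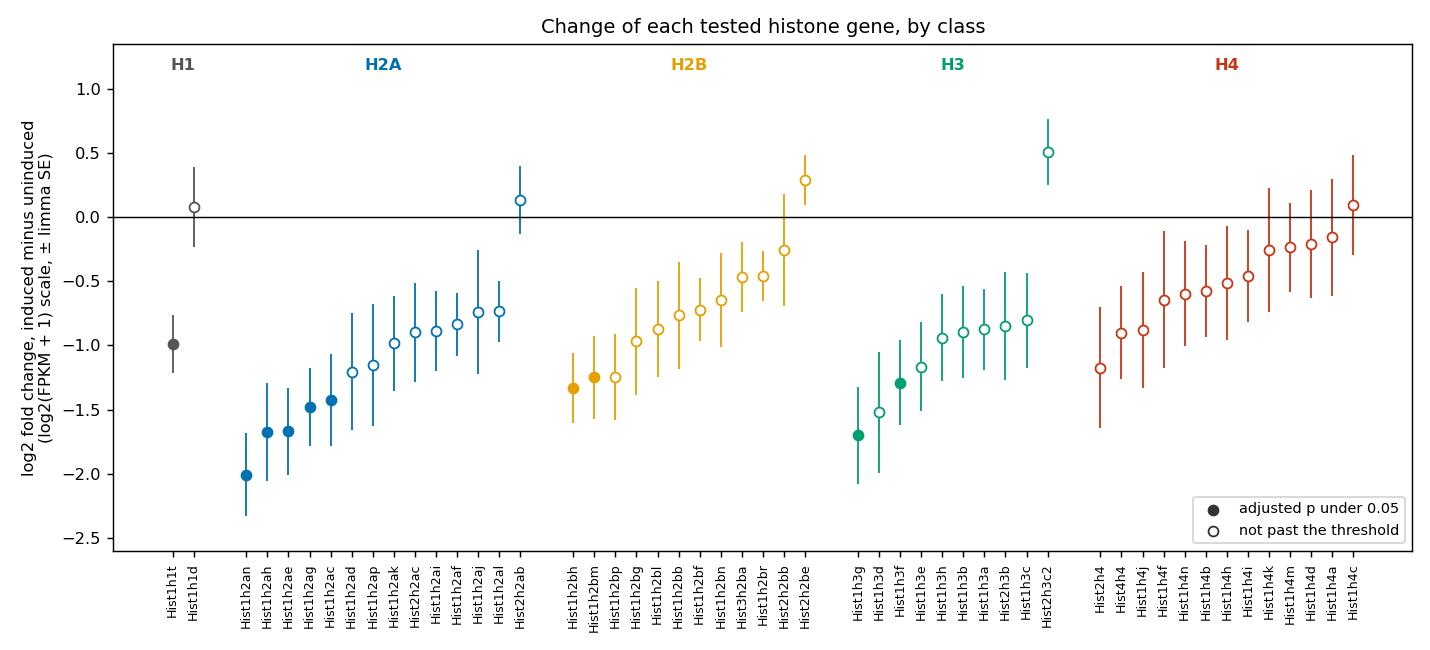
Log2 fold change of each of the 51 tested genes, induced minus uninduced on the log2(FPKM + 1) scale, with limma's SE as bars and filled points for the 10 genes past the threshold. The H2A genes reach down to -2.01, and no H4 point is filled.

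H2A, whose genes encode a partner of the H2A-H2B dimer, held 5 of the 10 genes that fell. Hist1h2an (chr13:21786826-21787218, minus strand) was at 892 and 1016 FPKM before induction and at 308 and 181 FPKM after. It fell by 2.01 ± 0.32 (SE) on the log2 scale, with an adjusted p of 0.0188 (limma), the largest decrease among the tested histone genes. Hist1h2ae was at 451 and 667 FPKM before and at 217 and 136 FPKM after, a change of -1.67 ± 0.34. These groups did not overlap, and neither did those of the 3 other H2A genes called. Hist1h2ah went from 246 and 259 to 114 and 54.0 FPKM (-1.67 ± 0.38). Hist1h2ag went from 320 and 427 to 164 and 106 FPKM (-1.48 ± 0.30). Hist1h2ac went from 744 and 1064 to 433 and 253 FPKM (-1.42 ± 0.36). Among these 5, only Hist1h2ae and Hist1h2ac had under 50% of annotated 50-base stretches recurring in another annotated gene (43.2% and 14.1%). The share was 85.8% for Hist1h2an, 92.1% for Hist1h2ah and 78.9% for Hist1h2ag. Yet 151 of the 704 annotated bases of Hist1h2ae and 2010 of the 2482 of Hist1h2ac lie after the stem-loop. The part before it was not counted apart. How the authors assigned fragments to genes with shared stretches was not given, so the level of a single copy is uncertain.

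The H2A gene with the highest level was not among those called. Hist2h2ac was at 3577 and 4382 FPKM before and at 2758 and 1633 FPKM after, so the groups were apart, with an adjusted p of 0.140 (limma). At the other end, Hist2h2ab stood at 228 and 332 FPKM before and 322 and 283 FPKM after, with overlapping groups and a change of 0.13 ± 0.26. The median change of the 14 tested H2A genes was -1.07. Induced samples lay below uninduced samples in 12 of the 14. The low end of the class is Hist1h2aj, annotated as a pseudogene, at 2.08, 1.29, 1.53 and 0 FPKM in the order of uninduced 1 and 2 and induced 1 and 2. Below the filter were Hist1h2ao (at most 0.51 FPKM), Hist2h2aa2 (0.67 and 0.52 FPKM before, 0.20 and 0.15 FPKM after) and Hist1h2aa, a testis form listed at 0 in every sample. Of their 50-base stretches, 93.1% in Hist1h2aj, 93.5% in Hist1h2ao and 100% in Hist2h2aa2 recur in another annotated gene. The low levels of these copies are therefore uncertain.

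H2B, the other partner of the dimer, had 2 genes that fell. Hist1h2bh was at 513 and 650 FPKM before and at 270 and 193 FPKM after (-1.33 ± 0.27). Hist1h2bm was at 1435 and 1877 FPKM before and at 845 and 564 FPKM after (-1.25 ± 0.32), and it alone among the 10 called genes had a mean above 1000 FPKM. Just outside the threshold stood Hist1h2bp, with a change of -1.24 ± 0.33 and an adjusted p of 0.0504 (limma). The median change of the 12 tested H2B genes was -0.74.

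The most abundant histone row of the table was an H2B gene. Hist2h2bb was at 8275 and 11837 FPKM before and at 9801 and 6998 FPKM after, so the groups overlapped (-0.26 ± 0.44). Each of its 50-base stretches recurs in another annotated gene, which leaves its own level uncertain. Hist1h2bl followed at 1837 and 3004 FPKM before and 1512 and 1092 FPKM after, and Hist1h2bb at 1614 and 3038 FPKM before and 1553 and 1095 FPKM after. In both, the groups were apart and the threshold was missed. Of the 50-base stretches of Hist1h2bl, 82.8% recur in another annotated gene, so its own level is uncertain too. Hist2h2be was the H2B gene with the highest change, at 17.7 and 19.9 FPKM before and 24.6 and 21.8 FPKM after (0.29 ± 0.19, not past the threshold). It is the H2B gene with no 50-base stretch in any other annotated gene. Hist1h2br, just above the filter, passed only through its uninduced values of 1.37 and 1.24 FPKM, beside 0.74 and 0.62 FPKM after induction. Hist1h2ba, a testis form, and Hist1h2bq stayed at or below 0.35 FPKM.

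H3 pairs with H4 in the core of the nucleosome, and 2 of its genes fell. Hist1h3g was at 623 and 1019 FPKM before and at 314 and 191 FPKM after (-1.70 ± 0.38). Hist1h3f was at 779 and 1285 FPKM before and at 458 and 363 FPKM after (-1.29 ± 0.33). In both, the groups did not overlap. The 2 most abundant H3 genes missed the threshold. Hist2h3b was at 2557 and 4575 FPKM before and 2273 and 1584 FPKM after, and Hist1h3c at 2223 and 3020.5 FPKM before and 1883 and 1167 FPKM after. In both, the groups were apart. Each 50-base stretch of Hist2h3b recurs in another annotated gene, which leaves its own level and rank uncertain. Induced samples were below uninduced samples in 9 of the 10 H3 genes. The exception was the low Hist2h3c2, at 12.1 and 13.4 FPKM before and 22.8 and 15.1 FPKM after (0.51 ± 0.26, not past the threshold). Of its 50-base stretches 63.5% recur in another annotated gene, so its level is uncertain too. The median change of the class was -0.92.

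H4 was the class with no limma call, and none of its 13 genes reached an unadjusted p under 0.05. Over all loci tested 14.7% were called lower, and 22.5% were lower at the unadjusted level. Without uninduced 1, and with the filter applied anew, 3 H4 genes were called lower (Hist1h4j, Hist2h4 and Hist4h4). In 9 of the 13 the groups overlapped. Hist1h4d, the most abundant, was at 5059 and 8532 FPKM before and at 6096 and 5287 FPKM after (-0.21 ± 0.42). Hist1h4c had the highest change, at 3817 and 5443 FPKM before and 5743 and 4141 FPKM after (0.10 ± 0.39). In both genes each induced sample lay above uninduced 1. Hist1h4h was at 3370.2 and 5603 FPKM before and 3925 and 2370.05 FPKM after. Hist1h4n was at 2688 and 4530.45 FPKM before and 2767 and 1927 FPKM after. Hist1h4f was at 2167 and 5192 FPKM before and 2711 and 1702 FPKM after. These 3 share a pattern in which induced 1 exceeded uninduced 1 and only induced 2 fell short of it. Of the 50-base stretches of Hist1h4n, 85.6% recur in another annotated gene, so its own level is uncertain. Hist1h4a, at 1497 and 3333 FPKM before and 1913 and 2095 FPKM after, was the single H4 gene with a higher level in induced 2 than in induced 1. Hist2h4 had the lowest change, at 263 and 642 FPKM before and 217 and 152 FPKM after (-1.17 ± 0.47, adjusted p = 0.125, limma), with groups that did not overlap. The class median was -0.51.

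Within H4, the 3 genes whose promoter window held CCAAT (Hist1h4a, Hist1h4c and Hist1h4d) had changes between -0.21 and 0.10. The 9 without it ranged from -0.90 to -0.24, with Hist1h4m, at 1.1 to 2.95 FPKM, at the upper end. Hist2h4, with a change of -1.17, had no matched promoter and is in neither group. Over all tested genes with a matched promoter the order was the reverse. The 36 with CCAAT had a median change of -0.90, and the 9 without it, all H4 genes, had -0.58. The split within H4 was noticed after the values were seen and carries no test.

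The linker histone class had only 2 rows of its own. Hist1h1t, known as the testis linker histone, was at 33.5 and 36.1 FPKM before and at 14.5 and 19.97 FPKM after and fell (-0.99 ± 0.23, adjusted p = 0.0360, limma), while the 5 male germ cell markers reached at most 0.16 FPKM. Hist1h1d was at 683 and 1082 FPKM before and 881 and 936 FPKM after, with overlapping groups (0.08 ± 0.31). Other H1 genes shared a row: Hist1h1a with Hist1h1c, at 2215 and 3867 FPKM before and 2462 and 2551 FPKM after, had overlapping groups too. Hist1h1b shared a row with Hist1h3i, and Hist1h1e with Hist1h2be, so no class can be given for those values.

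Within the histone pool, H4 and H1 took larger shares and H2A and H3 smaller shares in both induced samples than in either uninduced sample, at the limit of what 2 against 2 samples can test. H4 made up 37.9% and 41.7% of the summed histone FPKM before induction and 46.5% and 48.0% after. H2A made up 14.8% and 12.04% before and 10.2% and 8.89% after, and H3 17.5% and 17.6% before and 13.5% and 12.7% after. H2B stayed between 27.4% and 28.6% in every sample, and H1 rows made up 1.20% and 1.18% before and 1.52% and 2.24% after. For H4, H1, H2A and H3 the groups did not overlap, and each exact permutation test gave p = 0.33, the smallest possible (0.417 after adjustment over the 5 classes). The ratio of summed H4 to summed H2A was 2.57 and 3.46 before and 4.57 and 5.40 after, and that of H4 to H3 was 2.16 and 2.36 before and 3.44 and 3.78 after. The ratio of H3 to H2A overlapped, at 1.19 and 1.46 before and 1.33 and 1.43 after. These shares do not depend on the scaling of each library, since every class is read within its own sample.

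In FPKM, which is scaled to each library, the summed H2A level was 0.484 and the summed H3 level 0.493 of the uninduced mean. H2B stood at 0.667, with groups that overlapped once globins and the 10 most abundant loci were left out of the scaling. The H4 sum was 22588 and 39452 FPKM before and 27423 and 20428 FPKM after, 0.771 of the uninduced mean with overlapping groups (exact permutation p = 0.667). Without uninduced 2 the H4 sum was higher in the induced samples, by 1337 FPKM. The 2 uninduced samples themselves differed more for H4 than for H2A.

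**Figure D3:**
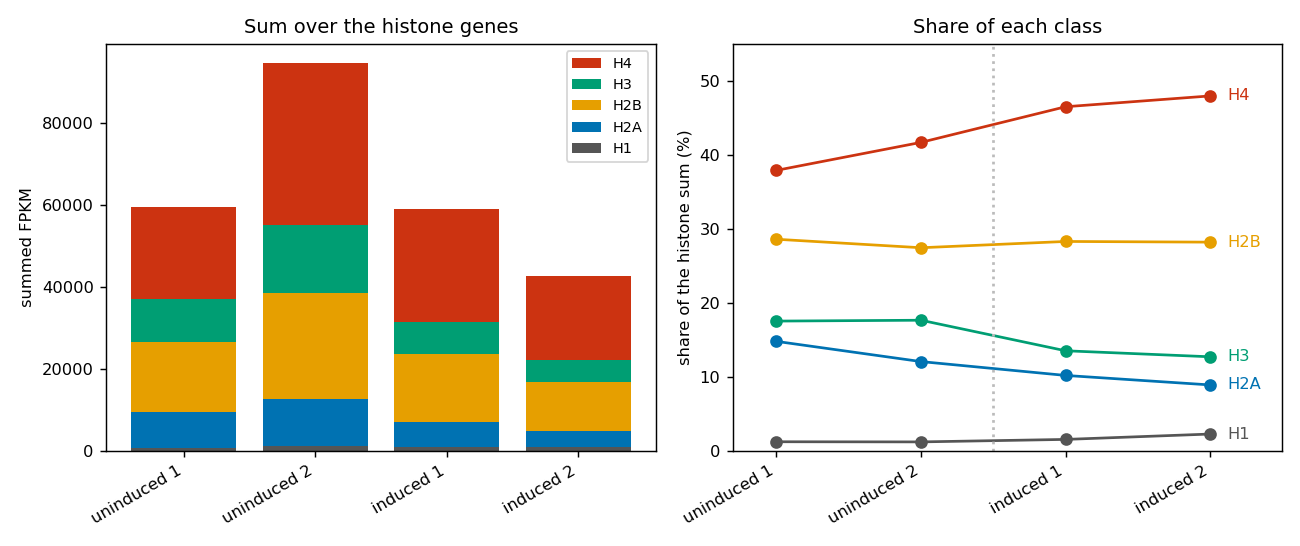
Left, summed FPKM of the 56 histone genes in each sample, stacked by class. Right, share of each class in that sum, in percent. The sum is highest in uninduced 2, and the H4 share lies between 46.5% and 48.0% in the induced samples, above both uninduced values.

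By cluster, Hist1 made up 74.2% and 76.2% of the histone sum before induction and 73.2% and 74.2% after, and Hist2 25.1% and 23.0% before and 26.2% and 25.1% after. These shares moved by under 2 percentage points between group means, and their direction turned when Hist2h2bb was left out. All 10 called genes lie in Hist1, where 42 genes were tested. The 7 tested Hist2 genes gave no limma call (0 at an unadjusted p under 0.05). With 14.7% of all loci called lower (22.5% at the unadjusted level), 0 of 7 does not set the clusters apart. The median change was -0.88 in Hist1 and -0.26 in Hist2. Hist3h2ba, the Hist3 gene, was at 139 and 184 FPKM before and 138 and 96.7 FPKM after. Hist4h4 on chromosome 6 was at 304 and 544 FPKM before and 258 and 183 FPKM after. In both genes the induced samples lay below the uninduced ones, and neither was called.

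Each column was also read apart, because replicates of a group differed widely. Uninduced 2 exceeded uninduced 1 in 47 of the 51 tested genes (43% of all loci tested did so), with a median difference of 0.52 on the log2 scale. The difference was largest for H4, with a median of 0.84 and all 13 genes higher, and smallest among the core histones for H2A, with a median of 0.32 and 11 of 14 higher. Induced 2 was below induced 1 in 48 of 51 (46.3% of all loci tested), with a median of -0.50. The exceptions were Hist1h1d, Hist1h1t and Hist1h4a. The order uninduced 2, uninduced 1, induced 1, induced 2 from high to low held in 32 of 51 genes, against 8.39% of all loci tested. The size of the change thus depends on the columns set against each other: the median was -0.28 for induced 1 against uninduced 1, -0.75 for induced 2 against uninduced 1, -0.80 for induced 1 against uninduced 2 and -1.42 for induced 2 against uninduced 2. For H4 the first of these medians was 0.22, above 0, while for H2A it was -0.53. With 1 sample on each side none of these differences has a test.

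Length and abundance were compared as measured facts. The 49 other single-exon loci of 300 to 700 bases with a mean of at least 10 FPKM had a median of 0.19 for uninduced 2 minus uninduced 1 and of 0.29 for induced 2 minus induced 1, opposite in sign to the histone median for the latter. The 1048 other loci with a mean of at least 100 FPKM had medians of -0.01 and 0.06. The order found in 32 histone genes held in 2 of the 49 and in 92 of the 1048.

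Genes of DNA replication, which like histone genes are expressed in S phase, mostly had the opposite order in the 2 uninduced samples. Of 23 S-phase genes tested by limma, 7 fell and none rose (11 lower and 0 higher at an unadjusted p under 0.05), beside 14.7% of all loci tested called lower (22.5% at the unadjusted level), with a median change of -0.72. The helicase subunit Mcm5 was at 180 and 135 FPKM before and 82.2 and 57.2 FPKM after, Mcm2 at 102 and 94.2 FPKM before and 41.0 and 32.6 FPKM after, and Mcm3 at 79.7 and 60.4 FPKM before and 35.4 and 25.9 FPKM after. Thymidine kinase Tk1 was at 67.3 and 71.6 FPKM before and 35.8 and 25.7 FPKM after, and Uhrf1, a maintenance methylation factor, at 67.0 and 63.7 FPKM before and 32.0 and 28.8 FPKM after. The clamp loader subunit Rfc3 was at 43.2 and 34.5 FPKM before and 23.1 and 19.8 FPKM after. In each of these 6 genes both induced samples lay below both uninduced samples. The sliding clamp Pcna, the most abundant of the list, was at 275 and 174 FPKM before and 203 and 148 FPKM after, with overlapping groups. Uninduced 2 was above uninduced 1 in only 2 of the 23 genes, with a median of -0.34, whereas the histone median was 0.52. Over the same 12890 loci none of the 23 was called without any 1 of the 4 samples. With the filter applied anew, 3 were called without uninduced 1, 7 without uninduced 2, 2 without induced 1 and 0 without induced 2.

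**Figure D4:**
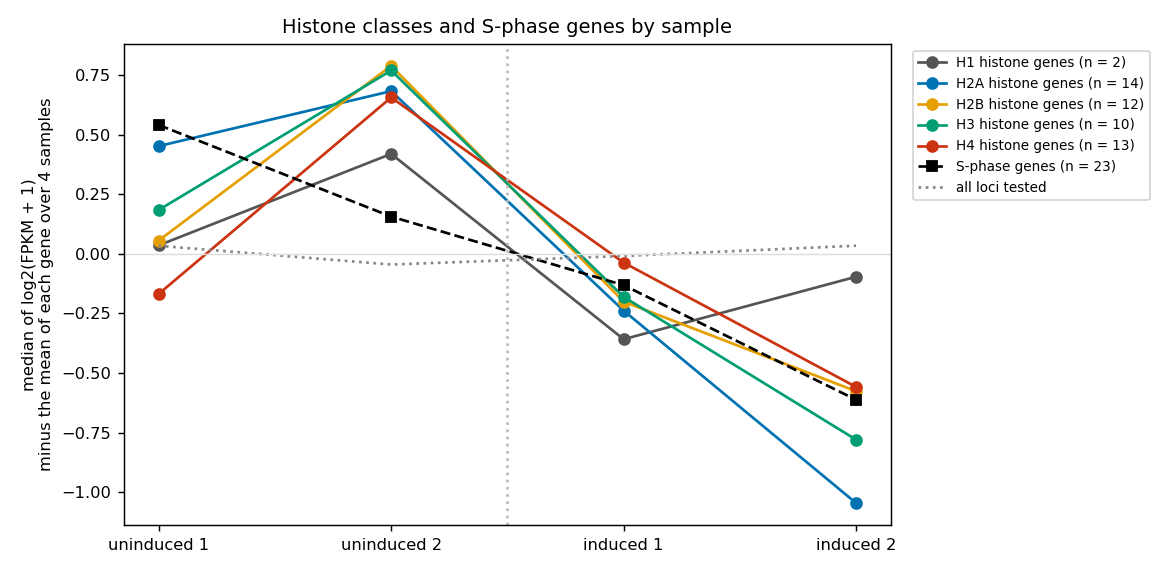
Median level of each histone class, of 23 S-phase genes and of all loci tested in each sample, as log2(FPKM + 1) after subtraction of each gene's own mean over the 4 samples. The S-phase genes start at 0.54 in uninduced 1 and descend, while every histone class is highest in uninduced 2.

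The factors that make and destroy histone mRNA were read list by list. None of 6 tested genes for histone gene transcription was called by limma, beside 26.2% of all loci called in either direction. At an unadjusted p under 0.05, 1 was higher, beside 20.7% of all loci. Npat was at 5.51 and 2.54 FPKM before and 6.53 and 4.72 FPKM after, and the cyclin E gene Ccne1, the most abundant of the list, at 58.8 and 45.0 FPKM before and 43.1 and 42.5 FPKM after. For Npat the groups overlapped, and for Ccne1 they did not. Hinfp, a transcription factor for H4 genes named here after its values were seen, had the change farthest from 0, at 9 and 9.89 FPKM before and 13.2 and 16.3 FPKM after (adjusted p = 0.0994, limma).

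Of 11 rows for 3′ processing and export, 2 fell and none rose, a share near the 14.7% of all loci called lower. These were Cpsf3, the endonuclease that cuts histone pre-mRNA, at 19.2 and 17.7 FPKM before and 10.6 and 10.1 FPKM after, and the cap-binding subunit Ncbp2, at 32.1 and 31.8 FPKM before and 19.2 and 16.1 FPKM after. Slbp, the most abundant of this list, was at 96.8 and 63.6 FPKM before and 119 and 92.3 FPKM after, with overlapping groups (0.41 ± 0.28). Its level was lower in uninduced 2, where histone mRNAs were highest. The U7 proteins Lsm10 and Lsm11 were not called, at 24.0 and 22.7 FPKM before and 20.02 and 25.3 FPKM after for Lsm10, and at 12.2 and 12.4 FPKM before and 9.09 and 8.30 FPKM after for Lsm11.

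Among 8 decay factors, 2 rose and 1 fell, beside 11.5% and 14.7% of all loci. Zcchc6, a uridylyl transferase, rose from 8.14 and 7.20 FPKM to 23.0 and 25.0 FPKM, and the exonuclease Xrn1 rose from 3.75 and 2.43 FPKM to 9.17 and 7.39 FPKM. Lsm1, a subunit of the ring that binds uridylated ends and the most abundant of the list, fell from 41.3 and 47.9 FPKM to 23.2 and 26.0 FPKM. Of 13 histone chaperone and acetylation genes 2 fell, about the share of all loci called lower (14.7%): Ssrp1, a subunit of FACT, from 157 and 151 FPKM to 82.3 and 67.4 FPKM, and Chaf1a, of the CAF-1 complex, from 25.2 and 23.0 FPKM to 14.3 and 12.4 FPKM. Rbbp7, the most abundant, was at 279 and 176 FPKM before and 158 and 118 FPKM after and was not called. Over the same 12890 loci no gene of these 4 lists was called without any 1 of the 4 samples. With the filter applied anew, 3 decay factors were called without uninduced 1, and 2 decay factors and 2 chaperone genes without uninduced 2, with no other call in the 4 lists.

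Divergent gene pairs put H2A and H2B side by side under a common upstream region. Of 11 head-to-head pairs of histone genes with starts within 1 kb of each other, 10 joined an H2A with an H2B gene. Their starts as annotated in GENCODE M21 lay 176 to 306 bases apart. The RefSeq starts used for the promoters can differ from these, as for Hist1h2ak. In 6 pairs both genes had a mean of at least 10 FPKM, and in all 6 the H2A gene had the lower log2 change. The gap ran from Hist1h2ai (-0.89) beside Hist1h2bl (-0.87) to Hist2h2ac (-0.90) beside Hist2h2be (0.29). The pair Hist1h2ae and Hist1h2bg, whose starts are 176 bases apart and whose promoter is printed above, changed by -1.67 and -0.97. Hist1h2an and Hist1h2bp changed by -2.01 and -1.24. Below that mean, Hist1h2aj changed by -0.74 beside Hist1h2bm at -1.25, the other order, and Hist1h2ap by -1.15 beside Hist1h2br at -0.46. Stretches of 50 bases that recur in another annotated gene limit the comparison. Over the whole annotated transcript, only Hist1h2ae and Hist1h2bg both had at most 50% of them (43.2% and 49.7%). In the other pairs the level of a single copy is uncertain. The difference within pairs was not tested. The 11th pair, Hist1h3f with Hist1h2bh, changed by -1.29 and -1.33.

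**Figure D5:**
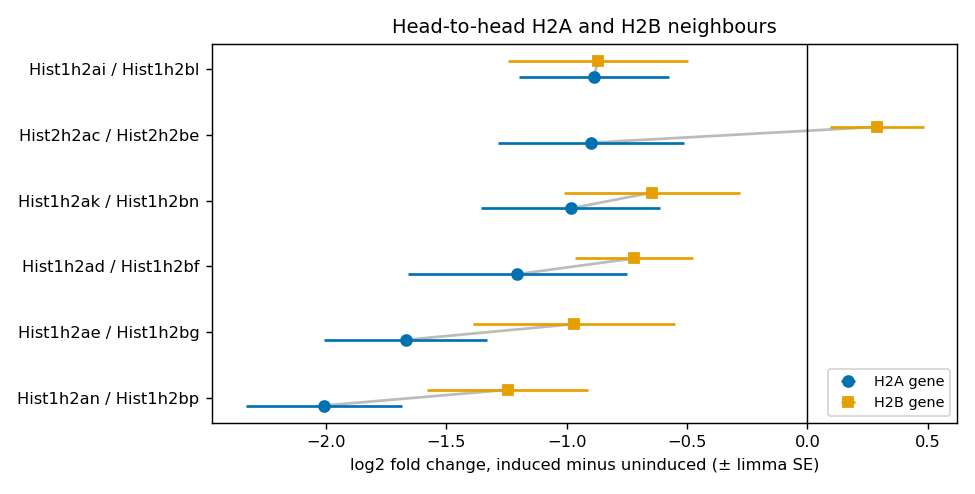
Log2 fold change, induced minus uninduced, of the H2A gene (circle) and the H2B gene (square) of the 6 divergent pairs with both means at 10 FPKM or more, with limma's SE as bars. In each pair the circle lies left of the square.

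Genes with few and with many near-copies were read apart. Stretches were counted over the whole annotated transcript, including any bases after the stem-loop. For some genes this transcript is longer than the deposited locus, at 1138 against 393 bases for Hist1h4d and 820 against 395 for Hist1h4c. The split therefore does not separate well-resolved from poorly resolved levels. Of 24 tested genes with at most 50% of 50-base stretches found in another annotated gene, 6 fell, with a median change of -0.88. Of the 27 with more, 4 fell, with a median of -0.85. The genes with a mean of 100 to 1000 FPKM held 8 of the calls among 26 tested, with a median of -1.07. The 18 with a mean of 1000 FPKM or more held 1 call, with a median of -0.62. Of all loci tested, 14.7% were called lower.

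Outside the histone genes, the 5 loci whose centred profile over the 4 samples lay nearest to the mean histone profile were Enkd1, Adpgk, Ndufab1, Hint1 and Rhbdd3, by Euclidean distance on log2(FPKM + 1) among 7103 loci with a mean of at least 5 FPKM. Enkd1, the nearest at a distance of 0.13, was at 9.56 and 14.3 FPKM before and 7.84 and 5.76 FPKM after. Ndufab1, a mitochondrial acyl carrier protein, was at 260.04 and 389 FPKM before and 195 and 156 FPKM after. With 4 samples many loci can come this close.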

How the data were processed

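Total RNA of 4 MEL samples (2 uninduced, 2 induced with DMSO) was extracted with Trizol and depleted of ribosomal RNA with Ribo-Zero, per the labels' protocols. TopHat2 and GRCm38 were named, per the submitters' processing notes. The authors deposited 1 FPKM value per locus and sample, a unit inferred from the values and the Cufflinks-like layout, per the file headers. The quantifier, versions, annotation release, strandedness, read depth and handling of fragments that fit several histone copies are among the steps not given in the sources used here.

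Group membership came from the labels. The fit took log2(FPKM + 1) over the 12890 loci that reached 1 FPKM in 2 or more samples, with limma 3.58.1 (eBayes with trend) in R 4.3.3, Benjamini-Hochberg adjustment over all loci and a threshold of 0.05. It was tested on simulated data with independent noise at each locus, so shifts shared by many genes of a sample were not covered. Fold changes on this scale are understated for low genes. Sums and shares were compared by exact two-sided permutation over the 6 arrangements of samples. Gene positions, 3′ UTRs and shared 50-base stretches came from GENCODE M21, matched by symbol and position. FPKM scales each library to its own total, so a few abundant RNAs, such as globins, lower all other values, which the scaling alternatives address. An exact 0 in such a table can be a failed estimate.

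The histone genes and the gene lists were chosen with earlier results of these data known. Genes named with values were the 12 with the highest mean, those past the threshold, the extremes of each class, those next to the filter and, of each list, the called genes (up to 6) and the most abundant. Npat, Slbp, Lsm10 and Lsm11 were always named. Casp8ap2, Coil, Cstf2, Srrt, Ipo4, Mcm7, Cdt1 and Gins2 of the lists, and the markers Col3a1 and Pdgfra, had no row of their own and were not analysed here.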

Additional observations from a re-analysis of the deposited data

How the results depend on the processing

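The number of histone genes called lower (10) was 10 under quantile normalization and median-of-ratios scaling, 8 when globins and the 10 most abundant loci were left out of the scaling, 8 with a pseudocount of 0.1 and 11 with a filter at 5 FPKM, and 0 were called higher throughout. Without a filter on low values none was called, and 30 loci of 26323 passed in all against 3377, with 0 calls in each gene list. Leaving out a sample moved the histone count to between 0 and 2 and the count over all loci to between 14 and 486, with 0 calls in each list that had any. With the filter applied anew to the 3 samples left, an alternative added after seeing the data, the histone counts were 15 and 2 without uninduced replicates 1 and 2 and 5 and 0 without induced replicates 1 and 2, and those over all loci 2685, 2231, 860 and 187. In the same order, S-phase genes gave 3, 7, 2 and 0 calls, chaperone genes 0, 2, 0 and 0, decay factors 3, 2, 0 and 0, and 3′ processing 0 each. With globins and the 10 most abundant loci left out of the scaling, the separation of the groups was lost for the summed histone level and for the sums of H2B, Hist1 and Hist3, each with an exact permutation p of 0.67. A fit with the replicate block called 11 histone genes lower, 4238 loci in all, 4 chaperone genes and 12 S-phase genes. The deviations of replicate 1 within its group, uninduced with induced, correlated at 0.170 across loci. This is not a correlation of whole expression profiles. The labels do not say that a number marks a shared culture or day. Quantile normalization called 1 gene of 3′ processing and 4 S-phase genes. Scaling without globins called 0 of 3′ processing, 1 chaperone and 3 S-phase genes. The shares of H2A, H3 and H4 kept their direction under every alternative run. The H2B share, 0.23 percentage points higher on induction, turned to -3.04 without Hist2h2bb, to -0.640 with rows of several histone symbols, to -0.346 without uninduced replicate 2 (0.803 without uninduced replicate 1), and, in alternatives added after seeing the data, to -5.18 with genes that share at most 50% of their 50-base stretches and to -3.43 with genes that carry the annotated stem-loop. The H1 sum, 8.29 FPKM higher, turned to -47.4 FPKM under median-of-ratios scaling, to -527 FPKM with rows of several histone symbols and to -193 without uninduced replicate 1 and -22.0 without induced replicate 2, with a range of -193 to 209 FPKM when each sample was left out. The H4 sum ran from -15526 FPKM without uninduced replicate 1 to 1337 FPKM without uninduced replicate 2. The Hist1 share turned to 1.68 and the Hist2 share to -1.60 percentage points without Hist2h2bb, and the Hist3 share ran from -0.0024 without uninduced replicate 2 to 0.0364 without uninduced replicate 1. The causes of these changes were not tested. With 2 samples a group, exact tests cannot go below p = 0.33, and genes near 0.2 FPKM rest on about 1 fragment.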
